A study of Mus musculus with 18 samples.

Results

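The comparison is that of cells given PIC, the synthetic double-stranded RNA Poly(I:C), with untreated cells, taken from the count columns of the 3 PIC and the 3 control libraries, which are 6 of the 18 libraries of the series. Both groups are RAW 264.7, an immortalised mouse macrophage line. The PIC group received 20 µg/mL for 12 h and the control group no treatment, and neither group received TBHQ (tert-butylhydroquinone). A further group, 3 libraries of the same line given LPS (lipopolysaccharide) at 0.1 µg/mL for 12 h without TBHQ, is set beside them where a direct test against PIC is given. The paper describes the 3 libraries of a group as biological replicates. All come from 1 line, so they do not cover variation between animals or between macrophages of different tissues, and the hour at which the control cells were harvested is not in the labels. Of 56748 genes listed, 24846 had at least 1 count in the 6 libraries and 13691 were tested.

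Double-stranded RNA is a mark of viral infection, and macrophages sense it with the endosomal receptor TLR3 and with cytosolic RNA helicases and kinases. Signals from these sensors reach the transcription factors NF-κB and the interferon regulatory factors, which turn on inflammatory genes and type I interferon. Secreted interferon then acts through its receptor and the JAK-STAT pathway on a large set of antiviral genes.

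The control libraries held 14599770, 15410984 and 15932183 counts, and the PIC libraries 15178175, 15502461 and 18851626. Each log2FC below is the log2 ratio of PIC to control from the edgeR fit. The value after ± is a standard error computed from how the replicates of each group spread in log2 CPM with a prior count of 2. CPM is counts divided by the scaled depth of the library. The ± is therefore not the error of the fitted log2FC. For a gene with few counts in a group it can be far too small. Where an exact counting interval is given for such a gene, it shows the wider uncertainty. Each adjusted p is from edgeR's quasi-likelihood test with n = 3 per group. At an adjusted p below 0.05, 58.7% of the genes tested differed, 28.6% higher and 30.1% lower with PIC, and the median log2FC of all genes tested was -0.01. At an adjusted p below 0.01 and a log2FC beyond 1 in size, 12.0% differed, 6.95% higher and 5.07% lower. Beyond 2 in size, 3.57% differed, 2.70% higher and 0.869% lower. Genes whose 3 PIC libraries all lay above the 3 control libraries made up 30.6% of those tested, and genes whose 3 PIC libraries all lay below made up 32.2%. Of 8037 genes called at an adjusted p below 0.05, 7704 had libraries that did not overlap between the groups. For a named gene of whose transcript words of 50 bases more than 10% also occur in another gene, that share is given. Unless another threshold is named, a gene group's members are counted below as higher or lower at an adjusted p below 0.05. Each such number is to be read beside the 28.6% higher and 30.1% lower of all genes tested. A share near or below these sets a group little apart from genes at large.

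Genes higher by more than 2 on the log2 scale took 0.936%, 0.847% and 0.847% of the counts in the control libraries and 6.95%, 6.92% and 6.90% in the PIC libraries. Genes lower by more than 2 took 0.463%, 0.471% and 0.465% of the control counts and 0.0805%, 0.0798% and 0.0848% of the PIC counts. Scaling by total library size in place of TMM shifted the median log2FC of all genes by -0.22, and the number of genes higher and lower at an adjusted p below 0.05 then became 2379 and 6635. Relative to that shift, the medians of the gene groups differed from those given below by at most 0.0042. Groups whose direction turns without that allowance, in the sign of the median or in whether more members were higher or lower, are named where they appear, and where total library size changed the number of members of a gene list higher or lower than the control by more than 1.5 times, its numbers stand beside those of TMM.

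Change was spread over the whole range of expression. Level is the mean FPKM of the control and PIC groups, so a raised gene can enter a higher range through its PIC value. The numbers by range therefore do not decide whether direction depends on level. Among 818 genes whose mean FPKM was 64 or more, 386 were higher and 229 lower, and past a log2FC of 1 in size there were 87 higher and 6 lower. From 16 to 64 FPKM 1036 were higher and 921 lower, from 4 to 16 FPKM 1377 and 1619, from 1 to 4 FPKM 651 and 915, and among 2814 genes below 1 FPKM 467 and 436. Of the 489 genes past a log2FC of 2 in size, 234 had a mean of under 50 counts, so many of the largest ratios belong to genes of low level.

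**Figure D1:**
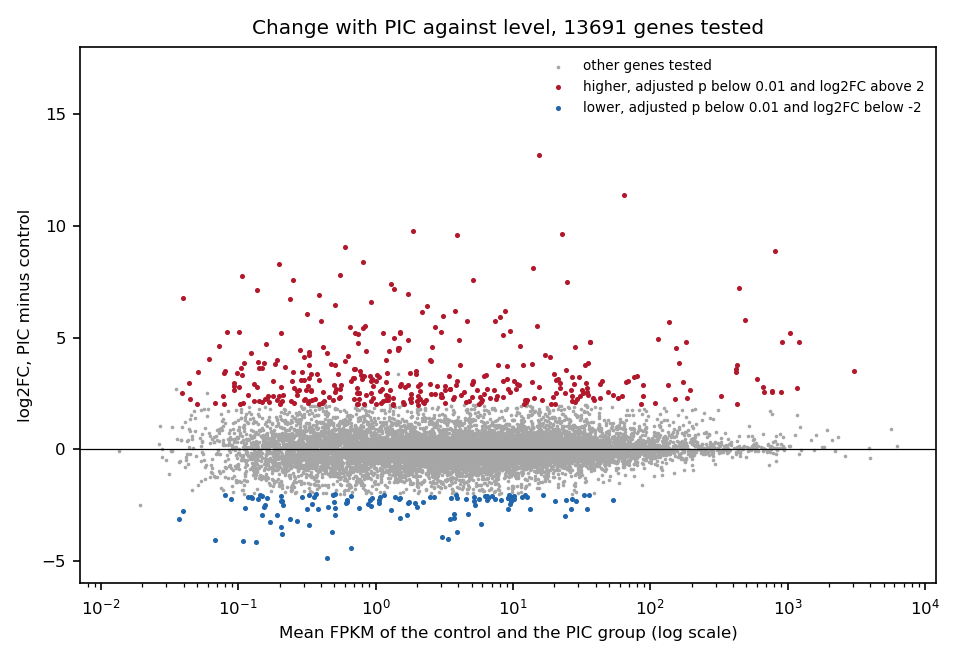
Change with PIC against expression level for the genes tested: the horizontal axis is the mean FPKM of the control and PIC groups on a log scale, the vertical axis the log2FC, and each point a gene. Red points are the 370 genes higher and blue points the 119 lower at an adjusted p below 0.01 and a log2FC beyond 2 in size, and genes at 0 counts in the control are drawn at their fitted value.

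The cells carried the markers of their label. Of 10 macrophage markers 9 were tested, and the most abundant was *Lyz2*, the gene of lysozyme, with FPKM of 4601, 4647 and 4345 in the control libraries and 3399, 3451 and 3543 with PIC (log2FC -0.40 ± 0.035, adjusted p = 1e-13). All 3 PIC libraries lay below the control libraries for this gene, of whose words 15.4% are shared. *Adgre1*, which encodes the macrophage marker F4/80, had FPKM of 17.1, 19 and 19 in the control and 70.7, 67.3 and 64.9 with PIC (log2FC 1.86 ± 0.061, adjusted p = 2.7e-27). *Csf1r*, the receptor for the macrophage growth factor CSF1, had FPKM of 158, 149 and 154 in the control and 85, 81.5 and 91.7 with PIC (log2FC -0.85 ± 0.055, adjusted p = 1.3e-20). So the F4/80 gene lay higher in each PIC library and the growth factor receptor lower. Of the 9 markers tested, 5 were higher and 3 lower, with a median of 0.15, whereas under total library size 4 were higher and 4 lower with a median of -0.07. *Cd14* rose by 1.02, *Itgam* by 1.25 and *Ptprc* by 0.51, while *Fcgr1* fell by 0.55, and 66.3% of the words of *Itgam* are shared. In bulk samples, fewer cells of a kind and less RNA per cell cannot be told apart. Of 7 epithelial markers none had a count in these 6 libraries, and of the B cell and the fibroblast lists no member reached the filter for testing.

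Sensors of double-stranded RNA and genes of their signalling were higher with PIC as a group. Of 22 genes of this pathway tested, 16 rose and 3 fell, with a median log2FC of 0.46 (12 higher and 6 lower under total library size). *Ifih1*, which encodes the cytosolic RNA sensor MDA5 (ENSMUSG00000026896, chromosome 2, 62426142 to 62476599 in the files), had FPKM of 9.18, 9.0 and 8.36 in the control libraries and 29.5, 30.5 and 31.1 with PIC (log2FC 1.76 ± 0.047, adjusted p = 2.4e-27). *Zbp1*, a sensor of nucleic acid in the Z form, had FPKM of 5.48, 4.45 and 4.85 in the control and 38.5, 41 and 37.7 with PIC (log2FC 2.97 ± 0.094, adjusted p = 1.9e-30). *Ikbke*, a kinase that acts on interferon regulatory factors, had FPKM of 5.43, 4.37 and 4.61 in the control and 23.3, 24.4 and 22.7 with PIC (log2FC 2.28 ± 0.10, adjusted p = 5.7e-29). For these genes each PIC library lay above each control library. *Trim25*, a ubiquitin ligase of the RIG-I pathway, was the most abundant member and rose by 1.09 (adjusted p = 1e-26), from FPKM of 89.3, 84.9 and 86.6 to 189, 189 and 185.

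Interferon transcripts themselves were scarce at this time. Of 21 interferon genes listed, 19 had no count in the 6 libraries and none reached the filter for testing. *Ifnb1*, the gene of interferon beta, had 3, 1 and 0 counts in the control libraries and 12, 4 and 6 with PIC. Its counts were therefore higher in each PIC library than in each control library, at a level too low for the test across genes. *Ifna13* had 2, 0 and 0 counts in the control libraries and none with PIC. Of 5 interferon receptor genes tested, 3 were higher and 1 lower with a median of 0.15, but under total library size the median turned to -0.06, the 3 calls of higher were lost and 2 were lower. Among them *Ifngr1*, which encodes the ligand-binding chain of the interferon gamma receptor, fell from FPKM of 9.82, 10.9 and 9.79 to 8.03, 8.9 and 7.34 (log2FC -0.35 ± 0.095, adjusted p = 0.0021).

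Among interferon regulatory factors and 3 genes of IRF2-binding proteins, 6 of 11 were higher and 4 lower with a median of 0.18, while under total library size 4 were higher and 4 lower with a median of -0.04. *Irf7*, the factor that amplifies interferon alpha production, had FPKM of 61.1, 62.5 and 57.1 in the control libraries and 198, 202 and 205 with PIC (log2FC 1.73 ± 0.043, adjusted p = 1.3e-29). Its PIC libraries lay more than 3-fold above its control libraries. *Irf1* rose by 0.61 (adjusted p = 6.3e-07) and *Irf9*, a subunit of the ISGF3 complex, by 0.49 (adjusted p = 5.7e-11). *Irf2*, a repressor at interferon response elements, had a log2FC of -0.58 (adjusted p = 1e-08) and fell, as did the corepressor *Irf2bp2* at -1.03 (adjusted p = 5.6e-13). Of 24 JAK-STAT genes and their regulators 13 rose and 6 fell with a median of 0.20, which turned under total library size to -0.02, with 9 higher and 9 lower, and without PIC replicate 2 the number lower became 3. *Socs3*, an inhibitor of cytokine receptor signalling, had FPKM of 2.43, 2.42 and 2.52 in the control and 67, 71.4 and 72.1 with PIC (log2FC 4.82 ± 0.036, adjusted p = 1.2e-36). *Cish*, another inhibitor of this family, had 3 counts over the control libraries, which gives a ratio of 42.1 with a 95% exact counting interval of 14 to 207. Without control replicate 1 its log2FC went from 5.21 to 6.08. The kinase gene *Jak2* rose by 1.25 (adjusted p = 4.1e-21), and *Ptpn6*, the phosphatase SHP-1 and the most abundant member, had a log2FC of -0.37 (adjusted p = 1.1e-11) and fell.

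Genes that act directly against viruses formed a broad block of higher expression. Of 29 IFIT, IFITM and other antiviral effectors tested, 24 rose and 3 fell, with a median log2FC of 1.00. *Rsad2*, which encodes the antiviral enzyme viperin, had FPKM of 23.6, 18.7 and 20.3 in the control libraries and 315, 318 and 281 with PIC (log2FC 3.85 ± 0.12, adjusted p = 2.2e-34). *Ifit1*, whose protein binds foreign RNA ends, had FPKM of 13.2, 10.7 and 9.42 in the control and 60.1, 62.1 and 57.3 with PIC (log2FC 2.42 ± 0.15, adjusted p = 1.2e-26). Each PIC library exceeded each control library for both genes. *Isg20*, an exonuclease gene, rose by 2.74 (adjusted p = 2.7e-24). *Ifitm3*, which hinders entry of viruses, was the most abundant of these genes and rose by 0.62 (adjusted p = 8.8e-17), from FPKM of 1255, 1242 and 1271 to 1912, 2078 and 1867. *Ifit1*, *Ifit2* and *Ifit3* lie in a run of 6 neighbouring genes on chromosome 19, from 34528094 to 34627409 in the files' positions, that were all higher by more than 1 on the log2 scale. *Ifit2* had a log2FC of 1.52 and *Ifit3* of 2.67, and 51.2% of the words of *Ifit3* are shared with another gene.

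Of 9 tested genes of 2′-5′ oligoadenylate synthetases and of proteins like them 8 were higher, with a median of 0.95. The full list of OAS genes and RNase L held 10 tested members, 8 higher and 1 lower, with a median of 0.91. *Oasl1*, an OAS-like gene and the most abundant of them with PIC, had FPKM of 67.5, 59.9 and 63.6 in the control libraries and 769.7, 814 and 755 with PIC (log2FC 3.60 ± 0.06, adjusted p = 1.2e-36). The files list it as ENSMUSG00000041827, chromosome 5, 115061299 to 115075974. *Oas1a* had FPKM of 87.1, 83.7 and 83.7 in the control and 156, 161 and 153 with PIC (log2FC 0.87 ± 0.031, adjusted p = 2.5e-20), and 57.6% of its words are shared. *Oas3* rose by 0.47 (adjusted p = 5.7e-14) and *Oasl2* by 1.92 (adjusted p = 8.1e-25).

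The ubiquitin-like modifier ISG15 and its enzymes rose together, 7 of 7 members with a median of 1.09. *Isg15* had FPKM of 109, 106 and 96.4 in the control libraries and 502, 561 and 581 with PIC (log2FC 2.38 ± 0.082, adjusted p = 1.5e-29). *Uba7*, the enzyme that activates the modifier, rose by 1.13 (adjusted p = 2.9e-20), and *Usp18*, the protease that removes it, by 0.68 (adjusted p = 2.7e-17). All 3 genes had PIC libraries above the control libraries.

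Guanylate-binding proteins and related GTPases, which attack the compartments of pathogens, rose in 16 of 18 tested members and fell in 1, with a median of 1.25. *Gbp2* had FPKM of 1.81, 1.81 and 1.86 in the control libraries and 25.7, 26.1 and 25.9 with PIC (log2FC 3.81 ± 0.013, adjusted p = 1.2e-24). *Gbp2b* had FPKM of 1.18, 1.5 and 1.11 in the control and 16.4, 17.1 and 17 with PIC (log2FC 3.72 ± 0.13, adjusted p = 2.1e-22). *Irgm1* was more abundant and rose by 0.94 (adjusted p = 6.2e-20). The single member lower was *Gbp8*, with FPKM of 1.12, 1.3 and 1.41 in the control and 0.106, 0.0209 and 0.0515 with PIC (log2FC -4.40 ± 0.39, adjusted p = 7.3e-11). So members of 1 family moved in opposite directions, although 18.1% of the words of *Gbp8* are shared with other genes, and without PIC replicate 1 its log2FC became -5.01.

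Ifi200 genes, which encode DNA-binding proteins of the interferon response, had the highest median of the interferon-linked groups listed here, 1.99, with 12 of 13 members higher (11 higher and 1 lower under total library size). *Ifi202b*, the most abundant, had FPKM of 96.8, 102 and 94.8 in the control libraries and 265, 271 and 269 with PIC (log2FC 1.44 ± 0.031, adjusted p = 7e-28). *Ifi204* had FPKM of 13.9, 12.8 and 13.3 in the control and 52.7, 55.8 and 52.4 with PIC (log2FC 1.99 ± 0.047, adjusted p = 6.4e-26), and *Ifi205*, at a far lower level, rose by 3.09 (adjusted p = 2.8e-07). Of their words 20% and 18.6% are shared with other genes. These genes lie in a run of 8 neighbours on chromosome 1, from 173574859 to 173859376, all higher. A run of 11 neighbours, the longest found at this threshold, lies on the same chromosome from 85224572 to 85637719 and holds the nuclear body genes *Sp100*, *Sp110* and *Sp140*. *Sp100* rose by 1.15, *Sp110* by 1.54 and *Sp140* by 1.87, with 36% of the words of *Sp110* and 38.1% of those of *Sp140* shared. In all, 217 runs of at least 2 neighbouring tested genes moved the same way past a log2FC of 1 in size, 156 of them higher and 61 lower. At this threshold 6.95% of all genes tested were higher and 5.07% lower. The number of runs that genes in random order would give was not computed. Some runs hold a gene with transcripts named after it, such as *Ptgs2* with *Ptgs2os* and *Ptgs2os2*.

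Schlafen genes split, with 4 of 7 higher and 2 lower and a median of 0.83. *Slfn4* had FPKM of 182, 156 and 161 in the control libraries and 699, 725 and 642 with PIC (log2FC 2.03 ± 0.087, adjusted p = 6.9e-29), and *Slfn2* had FPKM of 121, 119 and 116 in the control and 368, 386 and 369.8 with PIC (log2FC 1.64 ± 0.029, adjusted p = 3.6e-30). Both were abundant, and their PIC libraries lay above the control libraries. *Slfn1* had 3 counts over the control libraries and 134 with PIC, a ratio of 48.2 with a 95% exact counting interval of 16.1 to 237, and without control replicate 1 its log2FC went from 5.41 to 6.28. *Slfn3* and *Slfn9* fell, with log2FC of -0.75 (adjusted p = 3.7e-08) and -0.62 (adjusted p = 3.8e-09). Shared words made up 10.8% of *Slfn4*, 15.6% of *Slfn3* and 11.5% of *Slfn9*. Among PARP genes and *Dtx3l*, a ubiquitin ligase gene, 10 of 13 rose and 2 fell. *Parp14* and *Tiparp*, which transfer single ADP-ribose units, rose by 1.40 (adjusted p = 2.3e-25) and 1.44 (adjusted p = 4.5e-25). *Parp1*, the DNA repair member, had a log2FC of -0.75 (adjusted p = 3.6e-18) and fell. Of 38 TRIM genes 16 were higher and 12 lower with a median of 0.04, which turned to -0.18 with 12 and 18 under total library size, and the largest rise was that of *Trim30c* at 2.67 (adjusted p = 2.2e-11).

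Genes for presenting antigen on MHC class I were raised more modestly, 14 of 21 higher and 3 lower with a median of 0.50 (12 higher and 6 lower under total library size, and the calls of lower lost under RLE size factors). The number lower became 1 without PIC replicate 2, PIC replicate 3, control replicate 1 or control replicate 3, and 0 without control replicate 2. *B2m*, the light chain of the class I molecule, had FPKM of 877, 916 and 875 in the control libraries and 1419, 1416 and 1328 with PIC (log2FC 0.62 ± 0.039, adjusted p = 1.5e-17). *Tapbp*, the gene of the peptide-loading protein tapasin, had FPKM of 64.4, 63.4 and 61.8 in the control and 122, 122 and 125 with PIC (log2FC 0.95 ± 0.022, adjusted p = 4e-22). *H2-Q1* rose by 1.41 (adjusted p = 1.1e-06), with 15% of its words shared. The immunoproteasome, which cuts peptides for this route, had 5 of 5 members higher with a median of 0.55. *Psmb10* rose by 0.76 (adjusted p = 4.4e-14), *Psmb8* by 0.40 (adjusted p = 1.2e-07) and *Psme2* by 0.76 (adjusted p = 9.7e-08), with 28.3% of the words of *Psme2* shared. *Psmb9* at 0.27 (adjusted p = 0.018) lost its call under total library size (adjusted p = 0.65) and without PIC replicate 2, control replicate 1 or control replicate 3 (adjusted p = 0.11, 0.1 and 0.061). Of 33 subunits of the constitutive proteasome 28 were higher and 1 lower with a median of 0.21, and under total library size 11 were higher and 6 lower with a median of -0.01. *Psmd11* rose by 0.87 (adjusted p = 1.9e-21) and *Psma6* by 0.62 (adjusted p = 2.3e-17). Of the 11 genes listed for class II presentation 3 were tested, 2 higher and 1 lower with a median of 0.18, but under total library size the median turned to -0.04 and both calls of higher were lost, 1 of them also without control replicate 2. The protease *Ctss*, the most abundant, had a log2FC of -0.15 (adjusted p = 0.00016) and fell.

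Chemokines, which draw leukocytes into tissue, had the highest medians of the 69 gene lists with a tested member. The filter kept 10 of 22 CC and 6 of 16 CXC chemokines listed. A member near 0 in the control could pass it only through libraries where it is high. These medians and their rank therefore follow in part from the filter. Of 10 CC chemokines tested, 9 rose, each by more than 2, and the median log2FC was 4.15. *Ccl5*, which attracts T cells and monocytes (ENSMUSG00000035042, chromosome 11, 83416604 to 83421344 in the files), had FPKM of 6.99, 4.73 and 5.67 in the control libraries and 855, 955 and 821 with PIC (log2FC 7.23 ± 0.17, adjusted p = 7.9e-39). *Ccl3*, among the 5 most abundant genes with PIC, had FPKM of 496, 482 and 475 in the control and 5581, 5073 and 6081 with PIC (log2FC 3.51 ± 0.077, adjusted p = 1.3e-34). *Ccl7*, a monocyte attractant, had FPKM of 5.86, 5.67 and 3.99 in the control and 265, 251 and 288 with PIC (log2FC 5.68 ± 0.18, adjusted p = 2.2e-34). In each of them the groups were far apart relative to the spread of the libraries. *Ccl4* rose by 2.73 (adjusted p = 1.8e-30), *Ccl9* by 2.61 (adjusted p = 1.6e-34) and *Ccl22*, at a low level, by 5.47 (adjusted p = 1.6e-20). *Ccl12* had 4 counts over the control libraries, a ratio of 58 with a 95% exact counting interval of 22.3 to 215, and without control replicate 1 its log2FC went from 5.73 to 6.98. *Ccl5*, *Ccl9* and *Ccl3* lie in a run of 6 higher neighbours on chromosome 11, from 83402562 to 83540181, that starts with *Heatr9*. *Heatr9* had 1 count over the control libraries, a ratio of 225 with a 95% exact counting interval of 40 to 8945, and without control replicate 3 its log2FC went from 7.38 to 9.22.

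Of 6 CXC chemokines tested 5 rose, with a median of 4.10. *Cxcl10*, a ligand of CXCR3 and a classical interferon target, had FPKM of 3.99, 3.3 and 3.1 in the control libraries and 34.6, 37.6 and 37.6 with PIC (log2FC 3.39 ± 0.12, adjusted p = 4.5e-28). *Cxcl11*, a ligand of the same receptor, had FPKM of 0.0515, 0.0162 and 0.0468 in the control and 1.47, 1.56 and 1.37 with PIC (log2FC 5.17 ± 0.25, adjusted p = 1.4e-13), a ratio of 37.9 with a 95% exact counting interval of 18.1 to 95.3 from 7 control counts. Both moved from a low level in every control library to a higher one in every PIC library. *Cxcl3*, a neutrophil attractant, had no count in the control and FPKM of 1.15, 1.19 and 1.27 with PIC, which is at least 67.6-fold higher against a floor of 3 counts over the group. For groups that hold a gene at 0 in the control, the median is the same with that gene at its bound. *Cxcl16* rose by 0.88 (adjusted p = 1.4e-09), and *Pf4*, the member without a call, had a log2FC of -0.37 (adjusted p = 0.33).

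Receptors for chemokines moved in both directions, 7 of 12 higher and 3 lower. *Ccrl2*, an atypical receptor that presents chemerin, had FPKM of 2.11, 2.65 and 2.03 in the control libraries and 53.8, 57.6 and 51.3 with PIC (log2FC 4.57 ± 0.13, adjusted p = 4.8e-33). *Cx3cr1*, the fractalkine receptor, had FPKM of 6.23, 5.63 and 7.01 in the control and 0.537, 0.367 and 0.301 with PIC (log2FC -4.00 ± 0.25, adjusted p = 6.2e-23). The groups lay well apart for both genes, in opposite directions. *Cxcr4*, the receptor of CXCL12, had a log2FC of -3.21 (adjusted p = 2.8e-05) and fell, to -4.33 without PIC replicate 3, and from its 4 counts with PIC the ratio of control to PIC was 9.97 with a 95% exact counting interval of 3.62 to 38.2. *Ccr1*, at 0.24 (adjusted p = 0.0069), lost its call under total library size (adjusted p = 0.79) and without PIC replicate 2 (adjusted p = 0.058).

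The interleukin 1 family held some of the largest changes measured. Of 21 genes of this family and the inflammasome, 13 rose and 4 fell with a median of 0.59 (12 higher and 7 lower under total library size), and the number lower became 2 without PIC replicate 2 or PIC replicate 3 and 1 without control replicate 2. *Il1b*, the gene of interleukin 1 beta, had FPKM of 0.0342, 0.0644 and 0.031 in the control libraries and 134, 142 and 109 with PIC (log2FC 11.39 ± 0.18, adjusted p = 8.7e-31), a ratio of 2906 with a 95% exact counting interval of 1135 to 10667 from 4 control counts. *Il1a* had FPKM of 0.033, 0.0311 and 0.0899 in the control and 46.4, 46 and 43.3 with PIC (log2FC 9.63 ± 0.23, adjusted p = 2.5e-28), a ratio of 854 with a 95% exact counting interval of 366 to 2631 from 5 control counts, and without control replicate 3 its log2FC became 10.27. Both went from a few counts in each control library to a high level in every PIC library. With so few control counts, the ± values of both understate the uncertainty that their counting intervals show. *Il1rn*, which encodes the antagonist of the same receptor, started from a higher level and rose too, from FPKM of 58.5, 56.3 and 55 to 819.8, 797 and 763 (log2FC 3.79 ± 0.041, adjusted p = 2.7e-40). *Il36g* had no count in the control and was at least 43.1-fold higher with PIC.

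Of 23 members of the TNF superfamily and its receptors 14 rose and 2 fell, with a median of 0.77 (13 higher and 4 lower under total library size). *Tnf* had FPKM of 132, 118 and 111 in the control libraries and 1038, 1049.8 and 1129.5 with PIC (log2FC 3.14 ± 0.082, adjusted p = 1.5e-35). *Tnfrsf1b*, the gene of TNF receptor type II, had FPKM of 13, 12.2 and 12 in the control and 289, 294 and 297 with PIC (log2FC 4.55 ± 0.037, adjusted p = 1.1e-39). So the cytokine and its receptor were higher in each PIC library. *Cd40*, a costimulatory receptor, rose by 2.88 (adjusted p = 1.9e-27). *Fas*, the death receptor, rose by 3.05 (adjusted p = 2e-22). *Tnfsf15* had 3 counts over the control libraries, a ratio of 21.6 with a 95% exact counting interval of 7.04 to 108, and without control replicate 3 its log2FC went from 4.29 to 5.10.

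Colony-stimulating factors, cytokines of the interleukin 6, 10 and 12 groups, related cytokines and their receptors rose in 22 of 30 tested members and fell in 3, with a median of 1.17 (21 higher and 5 lower under total library size). *Csf3*, which encodes G-CSF, had FPKM of 5.58, 2.35 and 2.26 in the control libraries and 1642, 1590.5 and 1591 with PIC (log2FC 8.89 ± 0.42, adjusted p = 1.6e-38). *Lif*, a cytokine that signals through gp130, had FPKM of 0.314, 0.198 and 0.286 in the control and 52.7, 48.9 and 46 with PIC (log2FC 7.51 ± 0.19, adjusted p = 1.4e-33). *Csf2*, the gene of GM-CSF, had no count in the control and FPKM of 10.8, 6.93 and 5.68 with PIC, at least 97.8-fold higher. All 3 genes were low or at 0 in the control and higher in each PIC library, with *Csf3* the most abundant.

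Lipid mediator genes moved in both directions. Of 15 genes of prostaglandin and leukotriene synthesis and of prostaglandin receptors 6 rose and 8 fell, with a median of -0.21. *Ptges*, the inducible prostaglandin E synthase, had FPKM of 1.36, 1.23 and 1.28 in the control libraries and 7.21, 7.01 and 7.03 with PIC (log2FC 2.44 ± 0.043, adjusted p = 2.8e-21). *Ptgs1*, the constitutive cyclooxygenase, had FPKM of 0.403, 0.569 and 0.64 in the control and 0.207, 0.222 and 0.182 with PIC (log2FC -1.42 ± 0.20, adjusted p = 0.00062), whereas *Ptgs2*, the inducible one, rose by 5.80. *Alox5*, which starts leukotriene synthesis, had FPKM of 1.76, 1.88 and 1.6 in the control and 0.50, 0.368 and 0.36 with PIC (log2FC -2.12 ± 0.16, adjusted p = 5.5e-11). Its partner *Alox5ap* had a log2FC of -0.40 (adjusted p = 5.3e-08) and fell. *Ptgs2* and *Ptges* thus lay higher, and *Alox5* and *Alox5ap* lower, in each PIC library.

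Of 20 genes of nitric oxide, arginine and polyamine metabolism 10 rose and 6 fell with a median of 0.17, and under total library size 10 were higher and 9 lower with a median of -0.04. Beside *Nos2*, which rose by 2.88, the arginine transporter gene *Slc7a2* had FPKM of 0.00713, 0.047 and 0.0259 in the control libraries and 3.39, 3.68 and 3.27 with PIC (log2FC 6.93 ± 0.45, adjusted p = 1.5e-23). Without control replicate 2 the log2FC of *Slc7a2* was 7.58. *Odc1*, which makes the first polyamine, had FPKM of 302, 228 and 233 in the control and 1544, 1548 and 1495 with PIC (log2FC 2.57 ± 0.13, adjusted p = 2.4e-29), with 24.3% of its words shared. *Nos2*, *Slc7a2* and *Odc1* were thus higher in every PIC library. Of 27 genes of itaconate synthesis, the TCA cycle and enzymes and carriers linked to it 5 rose and 16 fell, with a median of -0.13 (3 higher and 23 lower under total library size). *Acod1*, which makes itaconate, rose by 5.22, while *Mdh1* and *Idh2*, dehydrogenases linked to the cycle, fell, with log2FC of -0.66 (adjusted p = 1.1e-16) and -0.58 (adjusted p = 4e-13).

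NF-κB subunits, inhibitors, kinases and adaptors rose in 24 of 32 tested genes and fell in 4, with a median of 0.58 (18 higher and 8 lower under total library size). *Traf1*, an adaptor of TNF receptors, had FPKM of 4.0, 3.67 and 3.74 in the control libraries and 44.2, 45.6 and 45.1 with PIC (log2FC 3.55 ± 0.04, adjusted p = 9e-36). *Tnfaip3*, which encodes the inhibitor A20, had FPKM of 5.17, 4.99 and 5.08 in the control and 47.8, 50.1 and 48.1 with PIC (log2FC 3.24 ± 0.026, adjusted p = 1e-35). *Nfkbia*, the gene of the inhibitor IκBα, had FPKM of 54.8, 53.9 and 49.6 in the control and 246, 252 and 255 with PIC (log2FC 2.23 ± 0.048, adjusted p = 1.1e-31). These inhibitors and adaptors were higher in each PIC library with little spread among replicates. *Nfkbiz*, a nuclear member of the IκB family, rose by 2.54 (adjusted p = 4e-30).

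Dual-specificity phosphatases, among them those that switch off MAP kinases, rose in 10 of 14 tested and fell in 2, or in 1 without PIC replicate 1 or control replicate 2, with a median of 0.65 (8 higher and 4 lower under total library size). *Dusp5*, which acts on ERK in the nucleus, had FPKM of 4.61, 4.76 and 4.21 in the control libraries and 61.7, 65.7 and 60.4 with PIC (log2FC 3.77 ± 0.065, adjusted p = 4.3e-32). *Dusp1* rose by 2.90 (adjusted p = 8.1e-30) and *Dusp14* by 3.32 (adjusted p = 1.2e-21). Genes of the decay of AU-rich mRNAs moved both ways, 6 higher and 5 lower of 15, which turned to 4 higher and 8 lower under total library size. *Zfp36*, the gene of tristetraprolin, had FPKM of 19.7, 19.2 and 20.4 in the control and 94.1, 96.4 and 101 with PIC (log2FC 2.28 ± 0.039, adjusted p = 2.5e-30), and *Zc3h12a*, the RNase Regnase-1, rose by 1.81 (adjusted p = 3.5e-23). The related *Zfp36l2* had FPKM of 41, 43.7 and 42.5 in the control and 17.4, 15.8 and 21.3 with PIC (log2FC -1.24 ± 0.13, adjusted p = 1e-16), so 2 members of the same family of decay factors lay on opposite sides of the control. Genes of Toll-like receptors, their co-receptors and adaptors were higher in 11 and lower in 6 of 21, which turned to 8 and 10 under total library size. *Irak3*, an inhibitor of this pathway, rose by 2.21 (adjusted p = 2.3e-25), while the endosomal receptors *Tlr8* and *Tlr9* fell, with log2FC of -2.44 (adjusted p = 1.9e-06) and -1.70 (adjusted p = 8.1e-09).

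Transcription factors of the AP-1 and Egr groups and their immediate early partners rose in 15 of 19 tested and fell in 2, with a median of 0.73. *Ier3*, an immediate early gene, had FPKM of 77.8, 64.7 and 65.9 in the control libraries and 773, 779.7 and 772 with PIC (log2FC 3.46 ± 0.085, adjusted p = 2.6e-35), and *Maff* rose by 3.08 (adjusted p = 2.8e-23). Of 44 bZIP factors in the files' annotation 25 were higher and 10 lower (19 and 16 under total library size), and of 10 E2F factors, which drive the cell cycle, 7 were lower, and both families keep this direction under total library size. *Myc* and *Mycn*, related growth regulators, moved apart. *Myc* had FPKM of 7.19, 8.52 and 6.4 in the control and 23.2, 24 and 24.8 with PIC (log2FC 1.69 ± 0.12, adjusted p = 3.9e-21), and *Mycn* had FPKM of 132, 130.4 and 131 in the control and 42.4, 42.1 and 46.8 with PIC (log2FC -1.60 ± 0.049, adjusted p = 4.2e-26). *Mxd1*, which competes with MYC for its partner MAX, rose by 3.02 (adjusted p = 2.1e-24). *Ahr*, the aryl hydrocarbon receptor, had FPKM of 0.0846, 0.0996 and 0.144 in the control and 3.47, 3.2 and 3.42 with PIC (log2FC 4.90 ± 0.19, adjusted p = 2.6e-22), a change from a low level to above 3 FPKM in each PIC library. The zinc finger gene *Zfp811* rose by 6.21 (adjusted p = 6.5e-22), whereas *Tfap4* and *Pax6* fell, with log2FC of -1.58 (adjusted p = 4.8e-14) and -1.78 (adjusted p = 1.3e-12). Of 19 nuclear receptors 8 were higher and 5 lower with a median of 0.07, which turned to -0.15 with 4 and 7 under total library size, with *Ppard* higher at 1.82 (adjusted p = 1.4e-22) and *Pparg* lower at -1.92 (adjusted p = 1.3e-06). Of 11 Krüppel-like factors 5 were higher and 4 lower with a median of 0.17, which turned to -0.05 with 4 and 4 under total library size, and *Klf6* rose by 1.05 (adjusted p = 1.4e-23) while *Klf10* fell, with a log2FC of -1.21 (adjusted p = 3e-14).

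Genes of matrix proteases, the plasminogen system and their inhibitors rose in 12 of 15 tested genes and fell in 2, with a median of 2.93. *Serpinb2*, an inhibitor of plasminogen activators (ENSMUSG00000062345, chromosome 1, 107439153 to 107463208 in the files), had no count in the control libraries and FPKM of 32.2, 30.9 and 30.4 with PIC. It was at least 1169-fold higher, the highest bound among the 14 tested genes at 0 in the control, and 10.4% of its words are shared. *Mmp14*, a membrane-bound collagenase, had FPKM of 0.0656, 0.0515 and 0.0596 in the control and 4.3, 4.53 and 4.15 with PIC (log2FC 6.15 ± 0.083, adjusted p = 3.8e-25). *Mmp13*, another collagenase, had 2 counts over the control libraries, a ratio of 171 with a 95% exact counting interval of 47.1 to 1422, and without control replicate 2 its log2FC went from 7.18 to 9.81. *Mmp3* had no count in the control and was at least 13.3-fold higher. *Mmp9* had FPKM of 10.4, 9.76 and 9.6 in the control and 75.4, 78.8 and 74.9 with PIC (log2FC 2.93 ± 0.042, adjusted p = 1.9e-33), and *Mmp12*, the macrophage elastase, rose by 3.97 (adjusted p = 3.3e-22). The urokinase receptor *Plaur* rose by 3.07 (adjusted p = 7.8e-33) and urokinase itself, *Plau*, by 0.62 (adjusted p = 7.5e-14). The enzyme, its receptor and its inhibitor *Serpinb2* were thus all higher with PIC. *Mmp19* had a log2FC of -1.45 (adjusted p = 3.1e-08) and fell.

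Several other genes reached comparable ratios. *Edn1*, the precursor of the vasoconstrictor endothelin 1, had FPKM of 0.122, 0.0574 and 0.111 in the control libraries and 29.7, 27 and 27.3 with PIC (log2FC 8.11 ± 0.20, adjusted p = 1e-28). *Inhba*, a subunit of activin A, had no count in the control and was at least 40.6-fold higher. Of 20 TGF-beta and activin genes 10 were higher and 4 lower with a median of 0.18, which turned to -0.04 with 6 and 7 under total library size, and the signal carrier *Smad3* fell, with a log2FC of -2.02 (adjusted p = 1.5e-08). *Cstdc4*, a stefin-like gene at 0 in the control, was at least 109-fold higher, with 11% of its words shared. *Upp1*, which splits uridine, had FPKM of 0.133, 0.313 and 0.302 in the control and 16.5, 17.5 and 13.7 with PIC (log2FC 5.94 ± 0.32, adjusted p = 1.6e-23). Genes of complement and its receptors were higher in 6 and lower in 2 of 14 (6 higher and 4 lower under total library size). *C3*, the central component, rose by 2.33 (adjusted p = 1.4e-20) and *C5ar1*, the receptor for C5a, by 2.74 (adjusted p = 8.7e-30).

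Surface receptors showed a mixed picture. Of 11 genes, 10 of purinergic, adenosine and metabolite receptors and 1 of an ectonucleotidase, 7 rose and 1 fell (6 higher and 2 lower under total library size). *Adora2b*, a low-affinity adenosine receptor, had FPKM of 2.01, 2.2 and 1.28 in the control libraries and 15.7, 16 and 17.3 with PIC (log2FC 3.15 ± 0.23, adjusted p = 1.7e-20). *Adora2a* rose by 3.58 (adjusted p = 2.7e-09), or by 4.21 without control replicate 1, and *Gpr84*, a receptor for medium-chain fatty acids, by 1.68 (adjusted p = 3.2e-22). Of 29 scavenger receptors and lectins 14 were higher and 10 lower, which turned to 10 and 12 under total library size. *Clec4e*, the receptor Mincle for mycobacterial glycolipid, had FPKM of 39, 36.9 and 36.1 in the control and 306, 313 and 300.0 with PIC (log2FC 3.02 ± 0.038, adjusted p = 2.9e-36), while *Clec10a*, a galactose-type lectin, had FPKM of 0.517, 0.55 and 0.572 in the control and 0.152, 0.0248 and 0.0815 with PIC (log2FC -2.66 ± 0.44, adjusted p = 4e-06). The groups did not overlap for either lectin. Of 16 costimulatory and checkpoint genes 10 rose and 5 fell. *Cd274*, the gene of PD-L1, had FPKM of 5.65, 5.93 and 6.36 in the control and 36, 35.3 and 34.2 with PIC (log2FC 2.54 ± 0.053, adjusted p = 2.1e-29). *Lag3* had 3 counts over the control libraries, all in replicate 2, a ratio of 20.9 with a 95% exact counting interval of 6.79 to 104, and without that library its log2FC went from 4.22 to 7.36. Of 20 Fc receptors, integrins and adhesion genes 12 rose and 4 fell, with the fibronectin receptor chain *Itga5* higher by 1.76 (adjusted p = 1.3e-29) and the inhibitory receptor *Fcgr2b* by 1.52 (adjusted p = 6.9e-24).

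Genes of glucose use were higher as a group, 27 of 35 glycolysis and hypoxia genes rising and 5 falling with a median of 0.44 (21 higher and 10 lower under total library size). *Slc2a1*, the glucose transporter GLUT1, had FPKM of 82.1, 77.1 and 74.1 in the control libraries and 272, 267 and 254 with PIC (log2FC 1.75 ± 0.053, adjusted p = 1.2e-28). Each PIC library lay more than 3-fold above each control library. *Adm*, a hypoxia-responsive peptide gene, rose by 2.91 (adjusted p = 2.6e-09). *Gapdh* had FPKM of 9.13, 8.51 and 8.28 in the control and 16.9, 15.8 and 104 with PIC, so a single PIC library stood far above the rest, and 24.7% of its words are shared. Its log2FC was 2.41 (adjusted p = 0.0003), and without PIC replicate 3 it was 0.92 with an adjusted p of 0.12, while in limma on log2(FPKM + 1) and log2(FPKM + 0.1) the adjusted p was 0.056 and 0.051. The respiratory chain lay lower: of 91 nuclear genes for its subunits and assembly 4 were higher and 57 lower with a median of -0.19, under total library size 84 were lower and the calls of higher were lost, and without PIC replicate 2 or control replicate 3 the number higher became 2. *Cox6a1* and *Ndufaf7* fell, with log2FC of -0.17 (adjusted p = 0.00072) and -0.88 (adjusted p = 3.5e-08). Of 12 genes of the chain on the mitochondrial genome 1 was higher and 5 lower with a median of -0.07 (9 lower and the call of higher lost under total library size), the number higher becoming 2 without PIC replicate 2 or control replicate 3, and *mt-Nd1* had a log2FC of -0.31 (adjusted p = 1.1e-08).

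Genes for making lipids and ribosome parts were lower in several groups. Of 39 genes of sterol and fatty acid synthesis and its control 6 were higher and 25 lower, with a median of -0.24. *Scd1*, which puts a double bond into fatty acids, had FPKM of 46.6, 47.7 and 47.2 in the control libraries and 18.7, 17.8 and 21.3 with PIC (log2FC -1.30 ± 0.076, adjusted p = 5.2e-24). *Scd2*, the more abundant paralogue, had FPKM of 261, 272 and 275 in the control and 141, 136 and 149 with PIC (log2FC -0.94 ± 0.042, adjusted p = 3e-24). *Elovl6*, which lengthens fatty acids, had a log2FC of -1.18 (adjusted p = 3.7e-18). All 3 fell, with no overlap between the groups. In cholesterol efflux and lipid handling 5 of 14 genes were higher and 7 lower, or 1 and 10 under total library size, with the exporter *Abcg1* lower at -0.89 (adjusted p = 1.8e-16) and the lysosomal carrier *Npc2* higher at 0.98 (adjusted p = 9.8e-24). Mitochondrial ribosomal proteins were higher in 6 and lower in 46 of 77, with a median of -0.23 (3 higher and 68 lower under total library size), and the exception past a log2FC of 1 was *Mrpl52*, which rose by 1.16 (adjusted p = 1.1e-17). Ribosome biogenesis genes were higher in 2 and lower in 21 of 36, and lower in 35 with both calls of higher lost under total library size, among them *Dkc1* at -0.71 (adjusted p = 5.2e-17) and the RNA polymerase I factor *Ubtf* at -0.75 (adjusted p = 8.4e-17). Cytosolic ribosomal proteins had a median of -0.01, with 16 higher (19.8%) and 15 lower (18.5%) of 81, below the 28.6% and 30.1% of all genes tested. Under total library size 64 were lower, the calls of higher were lost and the median was -0.22. Under RLE size factors the median was 0.01, and without PIC replicate 3 the number lower became 4.

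Genes of the ATF4 stress response rose in 22 of 25 tested members and fell in 1, a call lost without PIC replicate 1 or PIC replicate 2, with a median of 0.64 (15 higher and 3 lower under total library size). *Ddit4*, an inhibitor of mTORC1, had FPKM of 2.97, 3.11 and 2.93 in the control libraries and 24, 25 and 24.6 with PIC (log2FC 3.01 ± 0.031, adjusted p = 1.7e-23). *Slc7a11*, the cystine transporter, had FPKM of 9.56, 9.24 and 9.7 in the control and 56.9, 53.3 and 54.6 with PIC (log2FC 2.51 ± 0.035, adjusted p = 2.1e-34). *Sesn2* rose by 1.82 (adjusted p = 3.5e-26) and *Atf4* itself by 0.88 (adjusted p = 7.5e-23). Aminoacyl-tRNA synthetases, several of them ATF4 targets, rose in 15 and fell in 2 of 21, or 9 and 7 under total library size, with *Nars* higher by 0.80 (adjusted p = 1.3e-22). ER chaperones and genes of the unfolded protein response were lower in 13 and higher in 7 of 25, with a median of -0.07. The chaperone *Hspa5* had a log2FC of 0.25 (adjusted p = 1.6e-10), a call lost under total library size (adjusted p = 0.23), and the disulfide isomerase *P4hb* rose by 0.67 (adjusted p = 3.3e-20). Of 22 heat shock and co-chaperone genes 12 were higher and 2 lower with a median of 0.21, which turned to -0.01 with 9 and 9 under total library size, with *Hsp90ab1* higher by 0.56 (adjusted p = 2.3e-19).

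Of 38 Nrf2 targets and glutathione genes 19 were higher and 8 lower with a median of 0.17, or 14 and 16 with a median of -0.05 under total library size. *Hmox1*, heme oxygenase 1, had FPKM of 202, 187 and 192 in the control libraries and 1126, 1213 and 1152 with PIC (log2FC 2.57 ± 0.046, adjusted p = 3.1e-35). *Fth1*, the heavy chain of the iron store ferritin, had FPKM of 1885, 1838 and 1846 in the control and 2862, 2827 and 2661 with PIC (log2FC 0.57 ± 0.036, adjusted p = 1.2e-19). Both genes, of heme breakdown and of iron storage, were higher in each PIC library. *Gstp3* had 2 counts over the control libraries, a ratio of 101 with a 95% exact counting interval of 27.5 to 839, and without control replicate 3 its log2FC went from 6.41 to 9.04. Pentose phosphate and NADPH genes were higher in 4 and lower in 9 of 15, with the rate-limiting *G6pdx* higher by 0.78 (adjusted p = 2.7e-21). The phagocyte NADPH oxidase had 6 of 8 members higher (4 higher and 2 lower under total library size), led by its catalytic subunit *Cybb* with FPKM of 89.4, 95.6 and 99 in the control and 339, 331 and 324 with PIC (log2FC 1.79 ± 0.047, adjusted p = 2.9e-31). Of 66 lysosomal genes 24 were higher and 24 lower, or 10 and 44 under total library size with a median of -0.25, and the protease *Lgmn* and the regulator *Tfeb* fell, with log2FC of -1.15 (adjusted p = 3.5e-25) and -1.12 (adjusted p = 6.1e-09). Autophagy genes were higher in 20 and lower in 5 of 37 with a median of 0.19, which turned to -0.03 with 10 and 9 under total library size, and the receptor *Sqstm1* rose from FPKM of 617, 578 and 578 to 1711, 1785 and 1701 (log2FC 1.53 ± 0.039, adjusted p = 3.4e-31).

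Mitosis and G2/M genes had the lowest median of the 69 gene lists with a tested member. All 67 mitosis and G2/M genes tested were lower, 65 of them by more than 1 and 25 by more than 2, with a median log2FC of -1.88 and a range of -3.10 to -0.42. *Plk1*, a kinase of mitotic entry (ENSMUSG00000030867, chromosome 7, 121758662 to 121769096 in the files), had FPKM of 44.5, 41.8 and 41.1 in the control libraries and 5.46, 5.63 and 5.45 with PIC (log2FC -2.96 ± 0.038, adjusted p = 3.1e-29). *Aspm*, a spindle pole gene, had FPKM of 6.34, 6.14 and 6.22 in the control and 0.702, 0.677 and 0.81 with PIC (log2FC -3.10 ± 0.078, adjusted p = 1.5e-27). *Cenpf*, a kinetochore gene, had FPKM of 6.61, 6.98 and 6.32 in the control and 0.816, 0.713 and 0.826 with PIC (log2FC -3.09 ± 0.079, adjusted p = 5.8e-28). The lowest control library lay more than 6-fold above the highest PIC library for each of the 3 genes. *Cdc20*, which activates the anaphase-promoting complex, had a log2FC of -2.69 (adjusted p = 4.3e-29), and 10.4% of its words are shared. Among the 15 lowest genes past the filters for naming were also the helicase gene *Pif1* at -3.69 (adjusted p = 1.3e-23), *Sapcd2* at -3.93 (adjusted p = 1e-19) and the nuclease gene *Ankle1* at -3.34 (adjusted p = 3.1e-22). *Hmgb2*, the most abundant of the mitosis list, fell from FPKM of 86.4, 89.7 and 86.6 to 31.2, 31.2 and 31.5 (log2FC -1.50 ± 0.018, adjusted p = 2.3e-25), with 18.7% of its words shared.

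DNA replication and G1/S genes were lower by less: 53 of 58 fell and 2 rose, with a median of -0.86 (1 higher and 55 lower under total library size), and 18 fell by more than 1. *Tk1*, thymidine kinase, had FPKM of 17.8, 17.3 and 17.2 in the control libraries and 5.55, 5.29 and 5.51 with PIC (log2FC -1.69 ± 0.028, adjusted p = 2.4e-22). *Rfc4*, a subunit of the clamp loader, had a log2FC of -1.40 (adjusted p = 9.2e-17) and *Ung*, a uracil glycosylase, of -1.48 (adjusted p = 7.1e-15). *Cdk4*, the most abundant, fell less, with a log2FC of -0.39 (adjusted p = 1.5e-12). The share of cells in each phase of the cycle was not measured in these files. The harvest hour of the control is not in the labels, so time in culture, if it differed, cannot be told apart from PIC.

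Genes of the p53 response rose in 16 of 26 tested and fell in 4, with a median of 0.56 (16 higher and 8 lower under total library size). *Plk2*, a kinase of this list, had FPKM of 56.7, 49.9 and 51.8 in the control libraries and 349.6, 342 and 324 with PIC (log2FC 2.66 ± 0.065, adjusted p = 4e-34), and *Ccng2*, a cyclin of arrested cells, rose by 2.23 (adjusted p = 1.9e-20). Among BCL2 family and death genes 13 of 25 rose and 7 fell (13 higher and 11 lower under total library size). The survival gene *Mcl1* had FPKM of 168, 171 and 171 in the control and 279, 285 and 273 with PIC (log2FC 0.70 ± 0.021, adjusted p = 8.6e-21). *Bcl2a1a* rose by 3.77 (adjusted p = 1.5e-17), with 69% of its words shared with its paralogues. *Bmf*, whose product promotes death, had a log2FC of -2.11 (adjusted p = 4.8e-06) and fell.

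**Figure D2:**
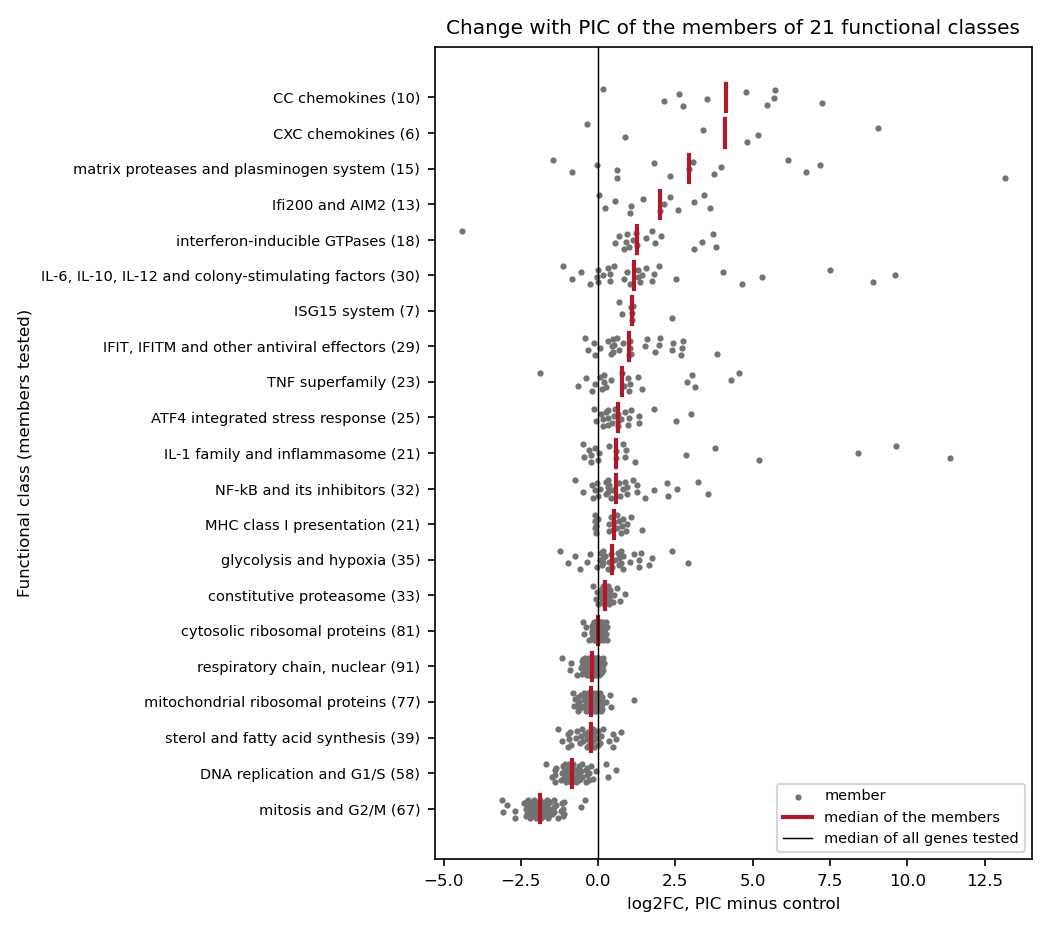
Change with PIC of the members of 21 functional classes: each grey point is the fitted log2FC of a tested member, also where the control is 0, each red bar the median of its class, the black line the median of all genes tested, and the number after each name the members tested. Among members that passed the filter, chemokines lie highest, with medians of 4.15 and 4.10, and mitosis genes lowest at -1.88. Under total library size the median of the constitutive proteasome turns from 0.21 to -0.01, and that of cytosolic ribosomal proteins goes from -0.01 to -0.22.

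At the top of the expression range, the composition of the transcriptome changed as well. *Spp1*, which encodes the secreted phosphoprotein osteopontin, had FPKM of 4117, 3856 and 3814 in the control libraries and 7423, 7562 and 7049.7 with PIC (log2FC 0.89 ± 0.047, adjusted p = 1.2e-22), with 11.6% of its words shared. It passed *Lyz2* in each PIC library, while *Lyz2* was the higher of the pair in each control library. *Lyz1* and *Ptma*, among the 5 genes with the largest fall in FPKM, had log2FC of -0.53 (adjusted p = 1.8e-14) and -0.72 (adjusted p = 1.1e-19), with 16.1% and 20.4% of their words shared.

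**Figure D3:**
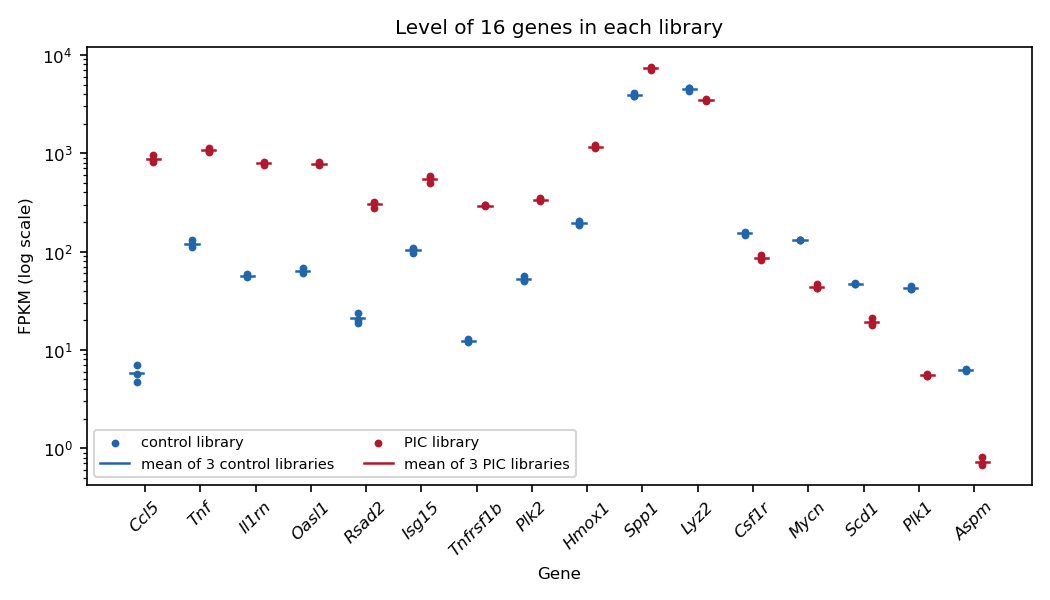
FPKM of 16 genes in each library, on a log scale: blue points are the 3 control libraries, red points the 3 PIC libraries, and short lines the mean of each group. In each gene shown the groups do not overlap, and Spp1 is above Lyz2 with PIC and below it in the control.

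Transcripts that are not protein-coding moved too. Of 1171 long noncoding RNAs tested 262 were higher (22.4%) and 135 lower (11.5%), both below the 28.6% and 30.1% of all genes tested. Their median was 0.13, but under total library size 183 were higher and 236 lower with a median of -0.09. *Mir155hg*, the host transcript of the microRNA miR-155, had FPKM of 0.818, 0.557 and 0.496 in the control libraries and 30.2, 30.2 and 27 with PIC (log2FC 5.53 ± 0.20, adjusted p = 1.3e-25). Its PIC libraries lay far above its control libraries. *Gm46189*, with 8 counts over the control libraries and a ratio of 55.5 with a 95% exact counting interval of 27.9 to 129.5, rose by 5.74 (adjusted p = 3.7e-17) and *Gm8818* by 5.09 (adjusted p = 6.6e-18), with 22.9% of the words of *Gm8818* shared. *Ttc39aos1* had FPKM of 9.1, 8.89 and 8.88 in the control and 1.28, 1.57 and 1.89 with PIC (log2FC -2.50 ± 0.16, adjusted p = 1.9e-19) and fell.

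Promoter sequences were searched because many of these genes moved together. RefSeq promoters of build GRCm38.p6 (250 bases before to 50 after the start) were found for 9558 of the genes tested. The core of the interferon-stimulated response element (ISRE), GAAA, any 2 bases and GAAA on either strand, occurred in 3.44% of all 32851 promoters in the table and in 3.92% of the genes tested. Among 238 genes higher by more than 2 it occurred in 31 (13%), and among 86 lower by more than 2 in 4 (4.65%). The NF-κB consensus occurred in 5.89% of all promoters, in 8.44% of the genes tested, in 12.2% of the genes higher and in 6.98% of the genes lower by more than 2. By group, 9 of 10 interferon-inducible GTPases, 9 of 12 Ifi200 genes, 12 of 26 IFIT and other effectors and 4 of 7 OAS genes held the ISRE core, and 3 of 4 CXC chemokines and 8 of 26 NF-κB genes held the NF-κB consensus. In other groups the ISRE core occurred in 1 of 6 genes of the ISG15 system, 4 of 55 mitosis genes and 2 of 45 replication genes, the NF-κB consensus in 7 of 55 mitosis genes (12.7%) and 3 of 45 replication genes, and none of 6 CC chemokines held either. A match describes letters in a window and is not a measured binding site. The 250 bases before the start, on the strand of the gene, are printed with the match in capitals for the 3 named genes with the highest log2FC that hold each motif there. *Edn1* (chr13:42301226-42301475, + strand), *Mmp13* (chr9:7272264-7272513, + strand) and *Tnfrsf1b* (chr4:145246871-145247120, - strand) hold the ISRE core.
Edn1: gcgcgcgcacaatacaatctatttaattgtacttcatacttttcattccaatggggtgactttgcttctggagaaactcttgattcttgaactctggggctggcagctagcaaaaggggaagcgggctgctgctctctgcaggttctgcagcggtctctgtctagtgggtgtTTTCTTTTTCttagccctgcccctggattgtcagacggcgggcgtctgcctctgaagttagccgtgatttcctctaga
Mmp13: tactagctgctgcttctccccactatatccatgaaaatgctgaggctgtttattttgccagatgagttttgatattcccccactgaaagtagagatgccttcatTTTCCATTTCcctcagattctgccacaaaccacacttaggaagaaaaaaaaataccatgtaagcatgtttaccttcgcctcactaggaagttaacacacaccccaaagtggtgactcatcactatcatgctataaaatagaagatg
Tnfrsf1b: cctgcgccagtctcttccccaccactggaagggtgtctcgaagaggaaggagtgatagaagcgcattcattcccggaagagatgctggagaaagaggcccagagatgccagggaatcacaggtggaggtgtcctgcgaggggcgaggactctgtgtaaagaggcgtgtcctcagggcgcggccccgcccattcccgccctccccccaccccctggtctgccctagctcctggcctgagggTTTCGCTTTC
*Cxcl3* (chr5:90785851-90786100, + strand), *Lif* (chr11:4257318-4257567, + strand) and *Slfn1* (chr11:83116570-83116819, + strand) hold the NF-κB consensus.
Cxcl3: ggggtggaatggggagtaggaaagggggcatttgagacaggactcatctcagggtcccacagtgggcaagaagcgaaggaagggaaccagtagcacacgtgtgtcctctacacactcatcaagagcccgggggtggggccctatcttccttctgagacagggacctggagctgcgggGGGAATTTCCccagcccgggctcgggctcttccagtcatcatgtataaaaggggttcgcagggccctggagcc
Lif: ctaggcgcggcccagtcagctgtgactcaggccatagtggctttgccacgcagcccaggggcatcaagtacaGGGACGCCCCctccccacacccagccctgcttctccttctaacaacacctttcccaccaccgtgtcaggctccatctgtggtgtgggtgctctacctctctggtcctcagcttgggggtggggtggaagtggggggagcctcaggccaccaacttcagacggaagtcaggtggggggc
Slfn1: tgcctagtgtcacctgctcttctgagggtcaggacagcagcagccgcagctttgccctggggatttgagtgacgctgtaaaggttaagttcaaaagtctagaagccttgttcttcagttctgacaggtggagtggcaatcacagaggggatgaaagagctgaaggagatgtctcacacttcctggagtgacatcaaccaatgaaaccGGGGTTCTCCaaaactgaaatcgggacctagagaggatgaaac
The first base of the match lies 78 bases before the start in *Edn1*, 146 in *Mmp13*, 10 in *Tnfrsf1b*, 73 in *Cxcl3*, 178 in *Lif* and 43 in *Slfn1*. These positions belong to GRCm38.p6. In the files 50588 of 52125 shared identifiers have another start, but not all genes do, and *Mmp13* starts at the same base.

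PIC and LPS, the bacterial stimulus, share their control libraries, so the direct test of PIC against LPS is given here, at the single dose and time used for each. At an adjusted p below 0.05, 27.7% of the genes tested differed, 14.9% higher and 12.8% lower with PIC, numbers that became 985 higher and 4373 lower under total library size. In double-stranded RNA sensing 11 of 22 genes were higher with PIC than with LPS and 4 lower. Among IFIT and other effectors 19 of 29 were higher and 1 lower, and among GTPases 13 and 1 of 18. Of 10 CC chemokines 7 were higher with PIC. Under total library size the numbers higher and lower were 9 and 5 in double-stranded RNA sensing, 12 and 1 among effectors and 11 and 1 among GTPases, and 7 CC chemokines were higher. The log2 ratio of PIC to LPS was 2.72 (adjusted p = 1.1e-24) for *Cxcl10*, 2.10 (adjusted p = 7.3e-29) for *Oasl1*, 1.91 (adjusted p = 2.2e-25) for *Rsad2* and 2.05 (adjusted p = 2.4e-26) for *Ccl5*. Mean FPKM with LPS was 5.52 for *Cxcl10*, 181 for *Oasl1*, 80.4 for *Rsad2* and 211 for *Ccl5*. *Ccrl2* at 2.61 (adjusted p = 1.2e-26), *Lif* at 2.70 (adjusted p = 1.6e-25), *Serpinb2* at 2.63 (adjusted p = 2.8e-21) and *Slc7a2* at 3.09 (adjusted p = 1.1e-17) were also higher with PIC. Other antiviral genes did not pass this test: *Oas3* had a ratio of 0.05 (adjusted p = 0.33) and *Uba7* of 0.04 (adjusted p = 0.55). *Myc* was higher with LPS, at -0.26 (adjusted p = 0.0014). In the mitosis list 58 of 67 genes were lower with PIC than with LPS, with a median of -0.37, and in the replication list 50 of 58 were lower and 2 higher. *Plk1* had a ratio of -0.52 (adjusted p = 7.2e-06) and *Cenpf* of -0.72 (adjusted p = 2.5e-07), and *Cx3cr1* of -1.58 (adjusted p = 3.4e-08), so these genes lay lower with PIC than with LPS, while *Alox5* had a ratio of 0.00 (adjusted p = 1).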

How the data were processed

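Polyadenylated RNA of RAW 264.7 cells was sequenced in libraries that the paper calls strand-specific. The authors deposited raw counts per gene, made with HISAT2 2.0.5, StringTie 1.3.3b and featureCounts 1.5.0-p3, with no normalization. The authors also deposited FPKM values, which equal the counts per gene length and library total multiplied by 1 constant per library, 0.943 to 0.951 in the control and 1.11 to 1.12 with PIC. The sources name the genome as both GRCm38 and mm39, and positions are those of the files. The strand setting of the counting is not stated, so counts of genes that overlap another on the opposite strand, among them *Ccl3*, *Cd274*, *Irf7*, *Oasl1* and *Tk1*, are less certain.

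Counts were filtered with filterByExpr, scaled by TMM and tested with glmQLFTest in edgeR 4.0.16 (R 4.3.3) in 1 fit over the 18 libraries of the series, with Benjamini-Hochberg adjustment over 13691 genes. Log2 CPM used a prior count of 2. Tables were made in Python 3.11.15 with numpy 2.4.6, scipy 1.17.1 and pandas 2.3.3, figures with matplotlib 3.10.9, and the procedure was tested on simulated data. There 200 of 13183 genes were changed, as many up as down. The simulation therefore does not test the scaling where changes are as wide as here. At these depths 3 counts correspond to 0.174 to 0.216 CPM in a library, which like the counting intervals covers counting error only. An exact permutation test of 3 libraries against 3 gives no two-sided p below 0.1.

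The comparison and the 64 gene lists and 8 marker lists were chosen with earlier results of these data known. Genes were named by rule: the 15 highest and 15 lowest by log2FC among genes with an adjusted p below 0.01, a mean of at least 50 counts and groups that do not overlap, the 3 members of each list with the largest change and its most abundant member, members of lists with at most 15 tested, the 5 genes highest in level or in change of level, members of the 5 longest runs, and the 5 highest and lowest noncoding genes and transcription factors. The text names those of them that show each group, and 5 genes chosen are not reported here.

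Alternatives were DESeq2 1.42.0 on 18 or 6 libraries, edgeR on 6 libraries, RLE size factors, total library size, no filter, a mean of at least 50 counts, the replicate number as a block, limma 3.58.1 on log2(FPKM + 1) and log2(FPKM + 0.1), a promoter window of 250 bases, runs at an adjusted p below 0.05, and leaving out each library.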

Additional observations from a re-analysis of the deposited data

How the results depend on the processing

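Counts of genes below keep to the thresholds of the report, and where a value moved by more than 1.5 times the cause was not tested unless stated. Under total library size 2379 genes were higher and 6635 lower at an adjusted p below 0.05, 1095 were lower past a log2FC of 1 in size and 192 past 2, and against LPS 985 were higher and 4373 lower. With a mean of at least 50 counts, which tests fewer genes, 617 were higher past 1, 184 higher past 2 and 62 lower past 2. In limma on log2(FPKM + 1), 545 were higher and 273 lower past 1, and 135 higher and 19 lower past 2, and on log2(FPKM + 0.1) 69 were lower past 2. Runs of neighbours at an adjusted p below 0.05 numbered 1725.

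Leaving out each PIC or control library gave 3654 to 3876 genes higher and 3676 to 3889 lower at an adjusted p below 0.05, 901 to 953 higher and 623 to 673 lower past 1, and 376 to 406 higher and 119 to 131 lower past 2. Against LPS, leaving out each library, those of LPS chosen after seeing the data, gave 1794 to 1897 higher and 1353 to 1570 lower. With the replicate number as a block, 3930 were higher and 4133 lower at an adjusted p below 0.05. Deviations of control and PIC libraries with the same number had correlations of 0.0613, 0.00847 and 0.0341 across genes. Those with different numbers had correlations of -0.0605 to 0.0282. With 3 libraries per group, whose deviations sum to 0, values this small do not settle whether libraries were paired.

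Of 486 genes chosen by the naming rule 433 were called, and 15 of these, with a log2FC of at most 0.22 in size, had another direction under total library size alone and are given no value here. The calls of lower in MHC class I presentation were also lost in DESeq2 and in edgeR on the 6 libraries, and DESeq2 on the 6 libraries gave 3 lower of JAK-STAT, 1 of the interleukin 1 family, 1 of the dual-specificity phosphatases, 3 of the mitochondrial genome, 9 of the cytosolic ribosome and 3 of the osteoclast list, and 1 higher of class II presentation. Dendritic and neutrophil markers had no member left with a mean of at least 50 counts, and the fits on 6 libraries do not hold LPS.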

Other observations

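Genes of the circadian clock were higher in 7 and lower in 2 of 15 tested with a median log2FC of 0.22, and these numbers turned to 5 and 6 under total library size. The hour at which the control was harvested is not in the labels. If it differed, time of day cannot be told apart from PIC for these genes. *Per1* had FPKM of 10.1, 9.42 and 9.17 in the control libraries and 16.5, 16.4 and 15.8 with PIC (log2FC 0.75 ± 0.045, adjusted p = 5.1e-15). *Ciart*, a repressor of the clock, rose by 1.16 (adjusted p = 2.5e-09), with 11.9% of its words shared, and the output regulator *Dbp* had a log2FC of -1.03 (adjusted p = 0.0023). Of 213 solute carriers 82 were higher and 70 lower with a median of 0.02, which turned to -0.19 with 57 and 104 under total library size. *Slc15a3*, a lysosomal transporter of histidine and peptides, had FPKM of 15.4, 14.8 and 13.7 and 144, 146 and 143 (log2FC 3.29 ± 0.054, adjusted p = 3.9e-35). Of 308 Zfp zinc finger genes 67 were higher (21.8%) and 66 lower (21.4%), against 28.6% and 30.1% of all genes tested. These numbers turned to 35 and 131 under total library size.

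Markers of other cells differed by kind. Of 8 neutrophil markers 2 were tested and *S100a9*, *Ly6g* and *Ltf* had no count in the 6 libraries. *S100a8*, the most abundant of them, had FPKM of 0.939, 0.796 and 0.597 in the control and 5.07, 6.01 and 5.7 with PIC (log2FC 2.82 ± 0.17, adjusted p = 2.3e-09), and the list summed to FPKM of 1.08, 1.15 and 1.01 in the control and 5.74, 6.77 and 6.09 with PIC. Of 8 T cell markers *Lck* was tested and rose by 0.86 (adjusted p = 3.2e-08), while *Cd3e* and *Cd8a* had no count. The osteoclast list summed to FPKM of 375, 412 and 407 in the control and 424, 438 and 433 with PIC, but without *Mmp9* to 365, 402 and 398 and to 349, 360 and 358, and its most abundant member *Ctsk* had FPKM of 200.5, 214 and 215 in the control and 186, 190 and 189 with PIC. Of 10 osteoclast markers 9 were tested, with 3 higher and 5 lower, or 3 lower without PIC replicate 3, control replicate 2 or control replicate 3. The part of these markers in the other results was not tested.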
